A study of Mus musculus with 24 samples.

Results

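Dgcr8 knockout cells given let-7 were compared directly with Dgcr8 knockout cells given miR-125, across all genes measured on an Illumina mouse bead array. The comparison rests on 6 of the 19 arrays of the series, 3 with let-7 and 3 with miR-125, chosen by their labels alone. A further 4 arrays of mock-treated knockout cells served to estimate the difference between hybridization batches, and are given here as the level without either microRNA. The same genes were also read on arrays of hybridization 1, 3 of Dgcr8 delta/delta knockout cells, 3 of undifferentiated and 3 of differentiated Dgcr8 flox/delta cells, which keep 1 floxed allele. The let-7, miR-125 and mock groups were GPCs, glial progenitors that had been made from mouse embryonic stem cells, with Dgcr8 deleted by tamoxifen, given at 1 uM for 16 h and then at 100 nM for 16 h. The labels state that replicates 1, 2 and 3 of the microRNA experiments are 3 separate tamoxifen treatments. Their medium was N2 supplemented with the growth factors EGF and FGF. The time of harvest, the let-7 or miR-125 family member used, its dose and form, and the Cre that tamoxifen activates are not given in the sources used here. As the series title frames it, the study asked whether both microRNAs cooperate when astrocytes form, and this comparison shows where their transcript profiles part.

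MicroRNAs guide Argonaute proteins to messenger RNAs that pair with the seed, bases 2 to 8 of the mature microRNA, and such messages are destabilised or translated less. Dgcr8 is a subunit of the microprocessor, which cuts most primary microRNA transcripts, so knockout cells lack most mature microRNAs of their own and a microRNA that is given back acts on an emptied background. The let-7 family is known for holding back proliferation and embryonic programs as cells mature, with Lin28, Hmga2 and Ras genes among its best known targets. The miR-125 family is the mammalian relative of worm lin-4, is abundant in neural tissue, and is known for targets that include pro-apoptotic genes and genes of the p53 network.

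The mature sequences are shown because the seeds of the 2 microRNAs differ, and several members of each family are printed because the labels do not name the one used. They are RefSeq sequences of build GRCm38.p6, written 5′ to 3′ with the seed in capitals.
let-7a-5p: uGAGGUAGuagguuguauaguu
let-7b-5p: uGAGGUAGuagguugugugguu
miR-125a-5p: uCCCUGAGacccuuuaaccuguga
miR-125b-5p: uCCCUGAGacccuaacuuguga
The let-7 seed is shared by 11 mature mouse microRNAs of the table and the miR-125 seed by 5. Set side by side without gaps, the seeds of let-7a and miR-125b have the same base at 2 of 7 positions. Mature let-7a of the gene printed here lies at chr13:48538239-48538260 on the minus strand, miR-125a at chr17:17830817-17830840 on the plus strand and 1 copy of miR-125b at chr9:41581940-41581961 on the plus strand. Genes of both families lie near each other on chromosomes 9, 16 and 17: on chromosome 17, Mirlet7e and Mir125a are 367 bases apart.

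Let-7 replicate 1 was run in hybridization 2 together with 1 mock array, whereas the other let-7 arrays, all miR-125 arrays and the other mock arrays were run in hybridization 3. Mean raw signal was 1429 to 1523 in hybridization 2 (2 arrays) and 756 to 868 in hybridization 3 (8 arrays), and 12435 to 13129 of 25697 probes were detected per array. The fitted hybridization difference exceeded 1 log2 unit, a factor of 2, for 10.1% of genes, against 1.85% for the difference between the microRNAs. Both arrays of hybridization 2 are of replicate 1, so that fitted difference also holds part of any difference between tamoxifen treatments. For Hes5 it was -2.79, although mock replicate 1 read 9.81 in hybridization 2 and 9.73 in hybridization 3. The comparison was fitted with a hybridization term, and the difference within hybridization 3 alone stands in the next paragraph. Of 26 astrocyte markers with a probe, 15 were detected on all 10 arrays, among them Aqp4, Aldh1l1 and Slc1a3, and 3 on none (Gfap, S100b and Nfia). Of 20 progenitor markers, 14 were detected on all 10 arrays, among them Vim and Nes, and 1 on none (Pax6). Of 9 microglial markers with a probe, 7 were undetected on all 10 arrays, as were 5 of 9 endothelial markers, among them Pecam1, Cdh5 and Kdr. In bulk samples a change in the share of a cell type and a change per cell cannot be told apart.

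Of 9935 genes tested, 118 (1.19%) differed between let-7 and miR-125 at an adjusted p under 0.05 in limma: 50 (0.503%) were higher with let-7 and 68 (0.684%) were lower. The median size of the difference was 1.06 on the log2 scale among the higher genes and 0.97 among the lower ones, and 29 and 28 of them reached a factor of 2. Genes higher with let-7 made up 42.4% of the calls here and 56.8% of the 81 calls when background was corrected with normexp and arrays were scaled to a common median. Adjusted p lay between 0.0275 and 0.0499, so the whole set sits near the threshold, and 1808 genes (18.2%) had an unadjusted p under 0.05. The arrays of the groups did not overlap for 47 of the 50 and 62 of the 68 genes, against 1978 (19.9%) of all genes. The call used these same arrays, so that separation is largely built into it and adds no support. With the tamoxifen treatment as a block, which the labels' pairing allows, 579 genes (5.83%) passed, 319 higher (3.21%) and 260 lower (2.62%), and the 118 remained among them. Within hybridization 3 alone, with 2 let-7 and 3 miR-125 arrays, no gene passed (lowest adjusted p = 0.0978, with 1457 genes at an unadjusted p under 0.05). There 117 of the 118 genes could be tested, each with its direction unchanged. Those arrays also made the call, so the unchanged direction is built into it and adds no support. No gene passed without let-7 replicate 1, let-7 replicate 2, miR-125 replicate 1, miR-125 replicate 2 or the mock array of hybridization 2. Without let-7 replicate 3 the count was 15, without miR-125 replicate 3 it was 76, without mock replicate 2 or 3 it was 23 or 21, and without mock replicate 1 of hybridization 3 it was 22. None of the 34 called genes named below by rule passed within hybridization 3 alone (highest adjusted p = 0.130).

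**Figure D1:**
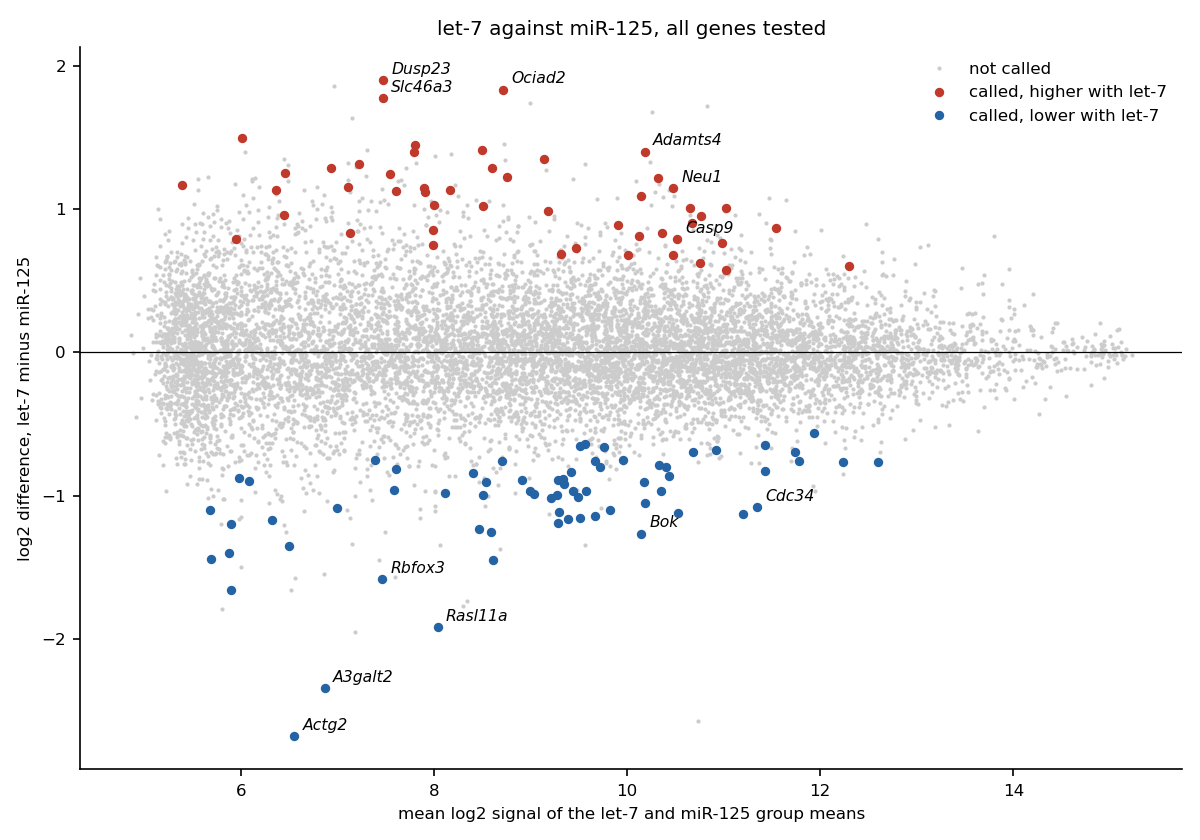
Difference between let-7 and miR-125 (log2, vertical axis) against the mean level of both groups (log2 signal, horizontal axis) for all 9935 genes tested. Red points are the 50 genes called higher and blue points the 68 called lower with let-7; Actg2 at -2.68 and Dusp23 at 1.90 are the extremes among them.

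**Figure D2:**
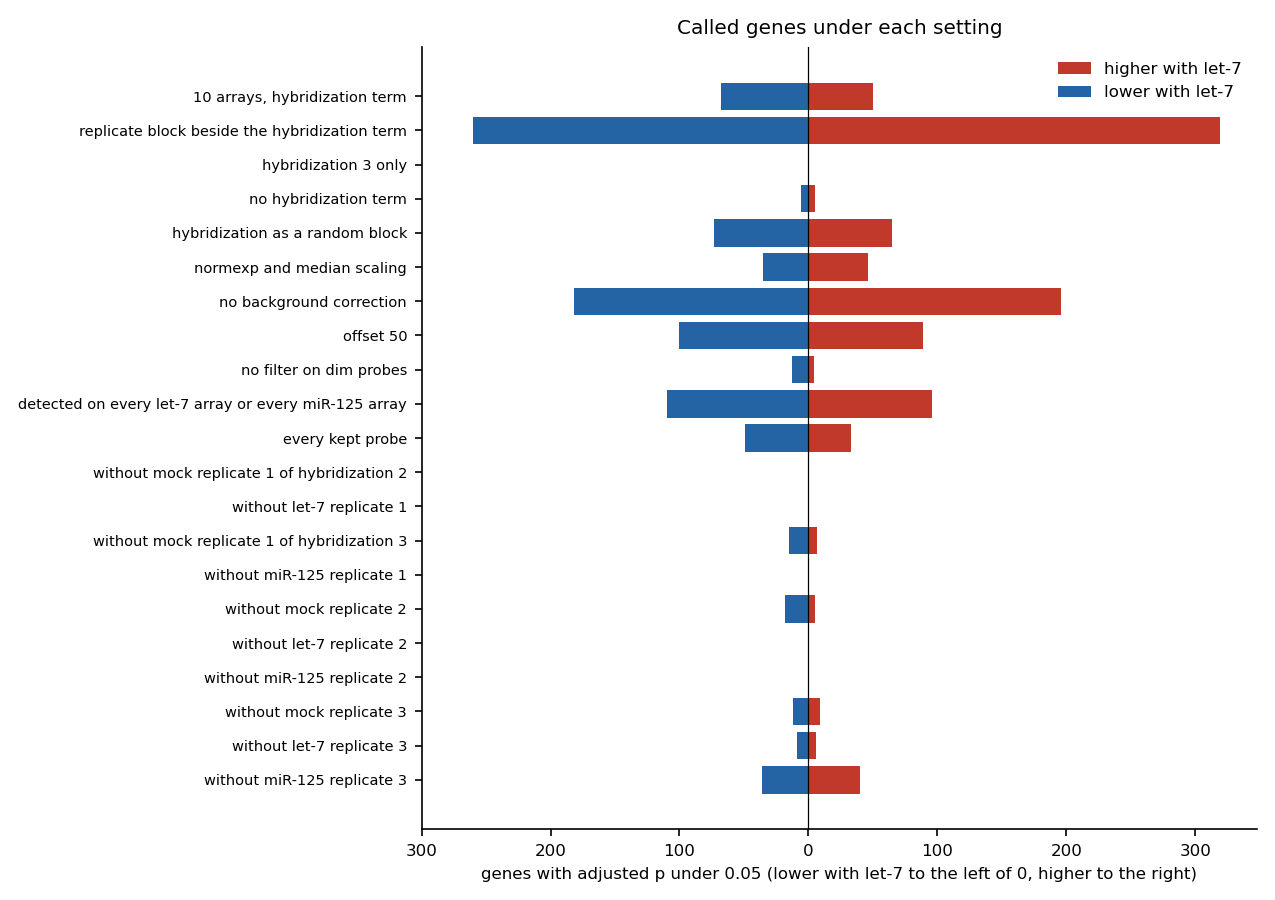
Number of called genes (adjusted p under 0.05) under each setting, with genes lower with let-7 to the left of 0 and genes higher to the right. The top bar shows the 68 and 50 genes of the fit to 10 arrays; the count is 260 and 319 with the replicate as a block, and 0 within hybridization 3 alone.

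Dusp23, which encodes a small dual-specificity phosphatase, was the gene most raised with let-7 relative to miR-125. Its log2 signal was 8.41, 8.67 and 8.02 on the let-7 arrays, against 6.40, 6.76 and 6.59 on the miR-125 arrays and 6.47, 7.20, 7.28 and 7.16 on the mock arrays. The let-7 arrays stood above all others, with a log2 difference of 1.90 ± 0.23 (SE) between let-7 and miR-125 (adjusted p = 0.0275). Ociad2, whose product is a mitochondrial and endosomal membrane protein, read 9.38, 9.77 and 9.63 with let-7, against 7.38, 8.32 and 7.80 with miR-125 and 8.06, 8.22, 8.74 and 7.60 with mock. Here too the let-7 arrays were highest, and miR-125 and mock overlapped (1.83 ± 0.32, adjusted p = 0.0445). Slc46a3, a lysosomal transporter gene, read 9.19, 8.56 and 7.66 with let-7, against 6.46, 6.76 and 6.19 with miR-125 and 7.43, 7.34, 7.35 and 6.73 with mock. Its groups did not overlap between let-7 and miR-125, although let-7 replicate 3 was the lowest of its group (1.77 ± 0.31, adjusted p = 0.0445). Lgals8, which encodes the sugar-binding protein galectin-8, read 9.21, 9.32 and 9.15 with let-7, against 7.95, 8.22 and 7.79 with miR-125 and 8.04, 8.18, 8.53 and 8.13 with mock. The spread within each group was small beside the difference of 1.29 ± 0.17 (adjusted p = 0.0275), and a further Lgals8 probe gave 1.05.

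In Angptl4, Ppt2 and Gcnt2, also called higher with let-7, the let-7 level was nearer to mock than the miR-125 level was. Angptl4, a secreted inhibitor of lipoprotein lipase, read 7.99, 7.45 and 7.47 with let-7, against 6.33, 5.92 and 6.44 with miR-125 and 7.48, 7.15, 7.34 and 7.35 with mock (1.28 ± 0.17, adjusted p = 0.0275). Ppt2, a lysosomal thioesterase gene, read 7.01, 6.94 and 7.32 with let-7, against 5.50, 5.96 and 6.02 with miR-125 and 7.57, 7.24, 7.39 and 7.54 with mock (1.25 ± 0.19, adjusted p = 0.0423, and 0.67 on a further probe). In both genes the miR-125 arrays were the lowest of the 10. Gcnt2, which makes branched poly-N-acetyllactosamine chains, was above background on all let-7 arrays and on no miR-125 array, at least 2.25-fold higher with let-7 (adjusted p = 0.0427). That bound sets the mean of the let-7 arrays against the lowest detected signal of each miR-125 array. Adamts4, a protease that cuts aggrecan and related matrix proteoglycans, lay on both sides of mock: 11.20, 10.97 and 10.54 with let-7, against 9.18, 9.53 and 9.70 with miR-125 and 10.12, 10.26, 10.52 and 10.16 with mock (1.40 ± 0.22, adjusted p = 0.0423). The remaining genes among the 14 largest were P2rx4, an ATP-gated ion channel (1.45 ± 0.27, 1.15 on a further probe), Rhebl1, a relative of the mTOR activator Rheb (1.41 ± 0.25), Vmac (1.40 ± 0.23), the angiotensin receptor partner Agtrap (1.35 ± 0.25), Aig1 (1.32 ± 0.25) and the adhesion receptor Adgre5, also called CD97 (1.24 ± 0.21, with 1.09 and 0.50 on further probes). Their adjusted p lay between 0.0423 and 0.0490. Agtrap was the one among the 14 whose let-7 and miR-125 arrays overlapped when hybridization 2 was counted in, with 8.97 on let-7 replicate 1 against 9.04 on miR-125 replicate 2.

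Actg2, the gamma actin of visceral smooth muscle, had the largest difference of all genes called, and was lower with let-7. Its log2 signal was 4.96, 4.96 and 5.56 on the let-7 arrays, against 7.59, 7.90 and 8.36 on the miR-125 arrays and 5.16, 4.97, 5.76 and 5.91 on the mock arrays. The miR-125 arrays stood alone, with a difference of -2.68 ± 0.31 (adjusted p = 0.0275, and 0.00325 with the replicate block), and the probe was detected on 1 of 3 let-7, 3 of 3 miR-125 and 2 of 4 mock arrays. A3galt2, the synthase of the glycolipid iGb3, read 5.90, 5.51 and 5.80 with let-7, against 8.47, 8.21 and 7.31 with miR-125 and 6.11, 6.07, 6.0 and 5.51 with mock (-2.34 ± 0.30, adjusted p = 0.0275). Rasl11a, a Ras-like small GTPase gene, read 7.34, 6.50 and 7.59 with let-7, against 8.52, 8.80 and 9.48 with miR-125 and 7.32, 6.62, 6.60 and 7.40 with mock. For A3galt2 and Rasl11a the let-7 arrays lay among or near the mock arrays, and Rasl11a passed most narrowly (-1.92 ± 0.37, adjusted p = 0.0499, and 0.00416 with the replicate block). Bok, a pro-apoptotic member of the Bcl2 family, read 9.02, 9.52 and 9.75 with let-7, against 10.89, 10.96 and 10.73 with miR-125 and 9.16, 9.32, 9.56 and 9.81 with mock (-1.27 ± 0.16, adjusted p = 0.0275, and -1.0 on a further probe). Rbfox3, the splicing factor known as the neuronal antigen NeuN, read 6.42, 6.74 and 6.71 with let-7, against 8.46, 8.61 and 7.83 with miR-125 and 6.58, 6.85, 7.36 and 6.35 with mock (-1.58 ± 0.29, adjusted p = 0.0450). In all 5 of these genes the miR-125 arrays were the 3 highest of the 10.

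Nme6 and Gmip, also lower with let-7, had every let-7 array below and every miR-125 array above the mock arrays. Nme6, a nucleoside diphosphate kinase family gene, read 8.18, 7.59 and 8.15 with let-7, against 9.47, 9.18 and 9.13 with miR-125 and 9.03, 8.30, 8.54 and 8.28 with mock (-1.45 ± 0.19, adjusted p = 0.0275, and -0.76 on a further probe). Gmip read 5.72, 5.77 and 5.92 with let-7, against 7.52, 7.01 and 7.08 with miR-125 and 6.28, 6.63, 6.18 and 6.52 with mock. All 3 Gmip groups were separate, with mock in the middle (-1.35 ± 0.18, adjusted p = 0.0289, and -0.85 on a further probe). B3gnt5, a glycolipid sugar transferase gene, read 7.81, 7.81 and 8.24 with let-7, against 9.49, 9.0 and 9.19 with miR-125 and 8.40, 8.32, 8.20 and 8.46 with mock. The miR-125 arrays were the 3 highest, and let-7 replicate 3 lay among the mock arrays (-1.25 ± 0.18, adjusted p = 0.0393). Of the others among the 14 largest, 3 were not above background on any let-7 array: Gzmm, the protease granzyme M, was at least 2.30-fold lower, the growth factor gene Fgf17 at least 2.03-fold and Pygl, the liver glycogen phosphorylase, at least 1.80-fold (adjusted p = 0.0450 for each). A further Pygl probe gave 0.27, in the opposite direction, and the gene is uncertain. Crybb3, a lens crystallin gene (-1.20 ± 0.23), the calcium-binding protein gene Necab2 (-1.17 ± 0.22) and 3110082I17Rik (-1.16 ± 0.19) complete the set, with adjusted p between 0.0423 and 0.0490. Crybb3 was detected on 1 of 3 let-7, 3 of 3 miR-125 and 0 of 4 mock arrays, so its difference is set against signal mostly not above background.

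**Figure D3:**
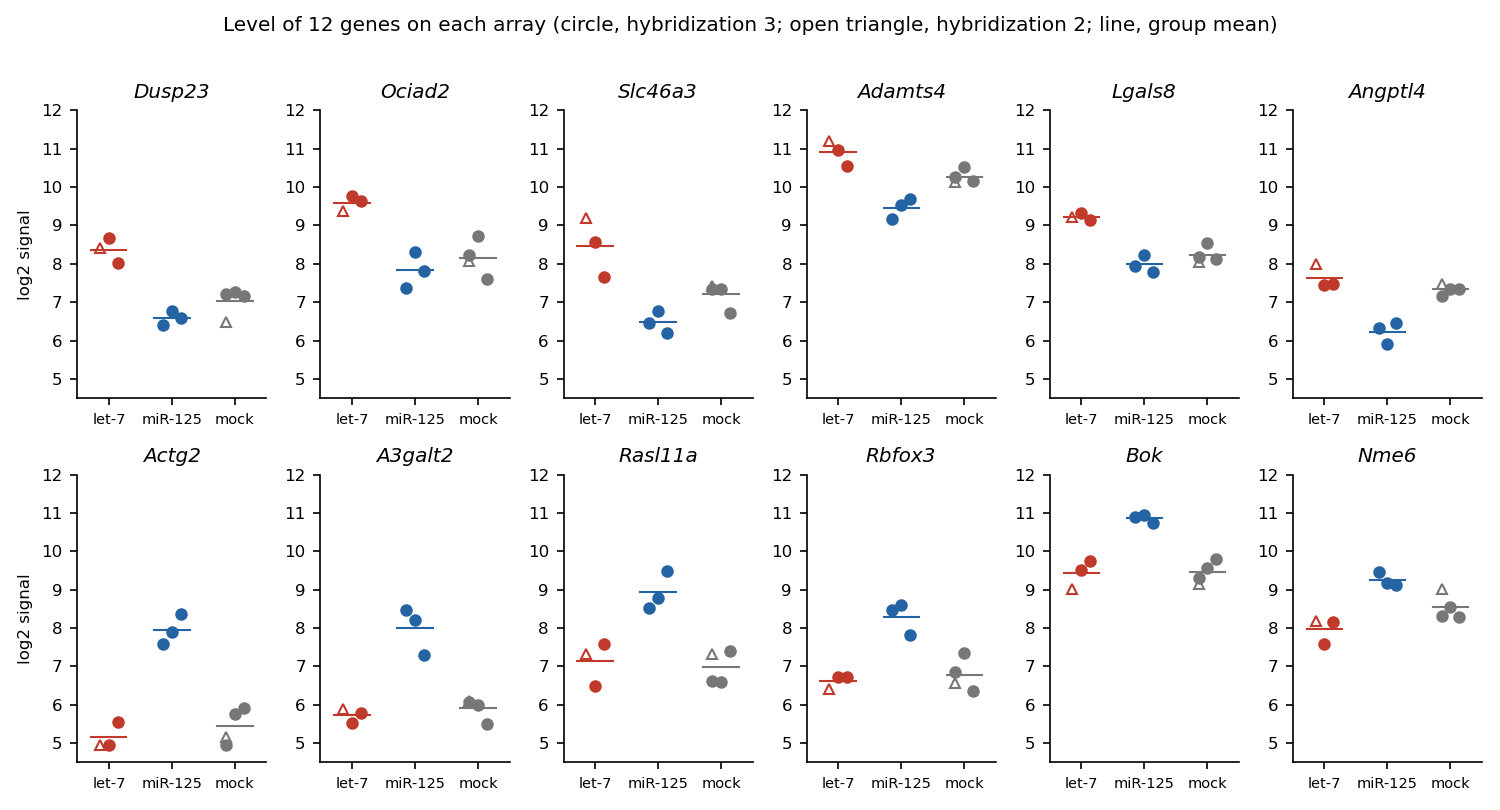
Level of 12 named genes on each of the 10 arrays (log2 signal, vertical axis), with let-7, miR-125 and mock arrays from left to right; points are arrays in the order of replicates 1 to 3, open triangles are hybridization 2 and lines are group means. In the top row the let-7 arrays exceed the miR-125 arrays, for Dusp23 at 8.02 or more against 6.76 or less, and in the bottom row they lie below them, for Actg2 at 5.56 or less against 7.59 or more.

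Each microRNA was also set beside mock in the same fit. Both comparisons share the mock arrays, so each one's own values are placed side by side. Against mock, 13 genes (0.131%) passed with let-7, 12 higher (0.121%) and 1 lower (0.0101%). With miR-125, 350 (3.52%) passed, 195 higher (1.96%) and 155 lower (1.56%). Among the 50 genes higher with let-7, 1 passed against mock with let-7 and 19 with miR-125, and the medians were 0.41 for let-7 minus mock and -0.57 for miR-125 minus mock. Among the 68 lower genes, 0 passed against mock with let-7 and 38 with miR-125, and the medians were -0.32 and 0.70. The 50 and 68 genes were called on these same let-7 and miR-125 arrays. Their counts and medians against mock are therefore tied to that call and are no separate evidence. Dusp23 differed from mock by 1.37 ± 0.20 with let-7 (adjusted p = 0.0555) and by -0.54 ± 0.21 with miR-125 (adjusted p = 0.170). Ociad2 gave 1.45 ± 0.28 with let-7 (adjusted p = 0.0694) and -0.38 ± 0.29 with miR-125 (adjusted p = 0.491). Actg2 gave -0.26 ± 0.27 with let-7 (adjusted p = 0.663) and 2.42 ± 0.28 with miR-125 (adjusted p = 0.0261).

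**Figure D4:**
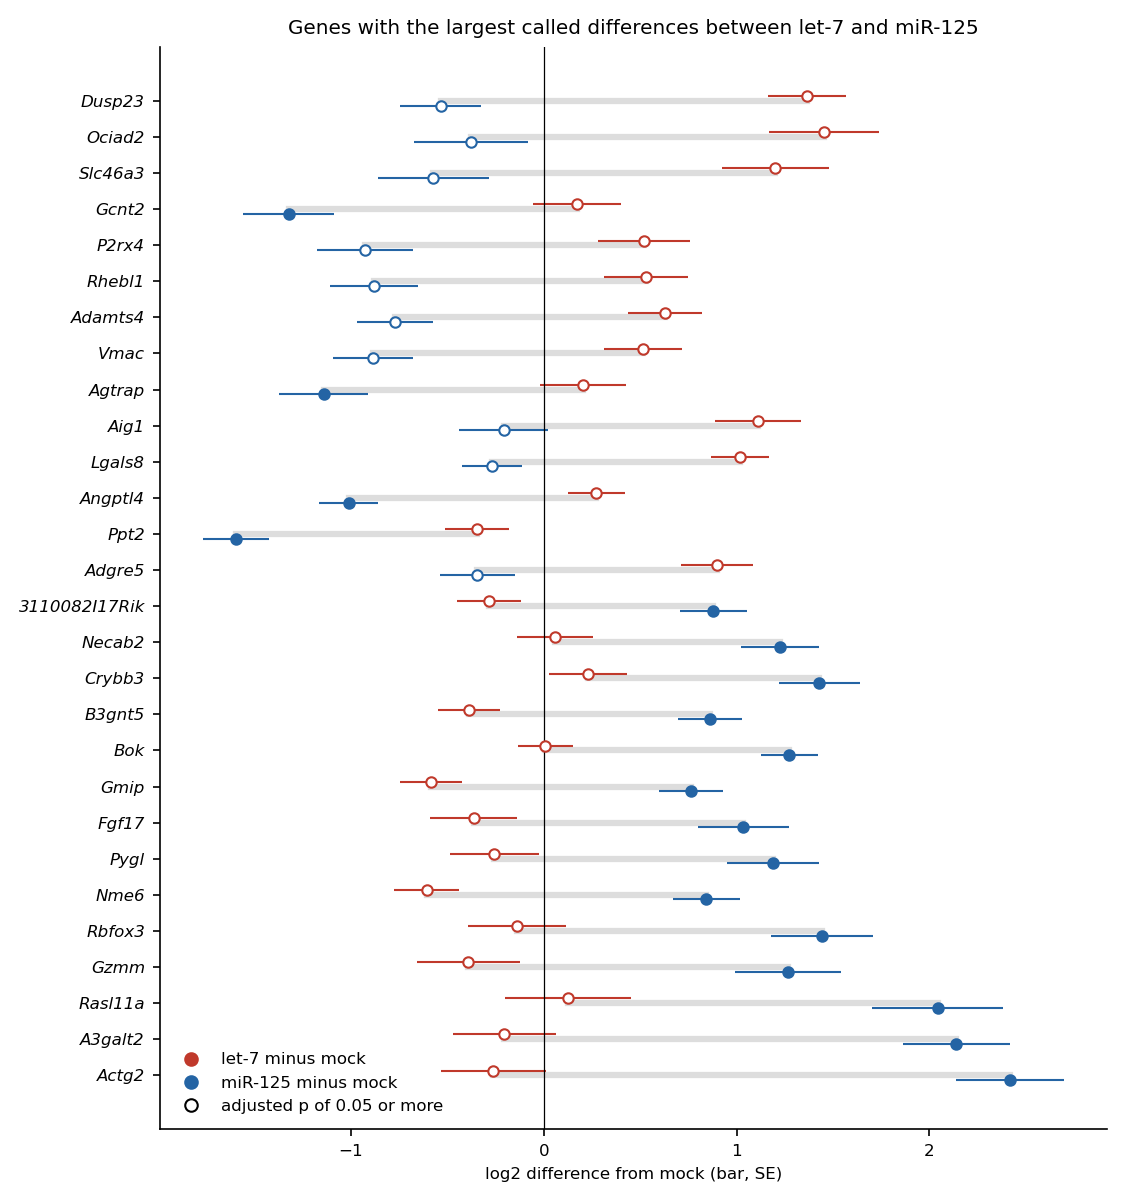
Difference of let-7 from mock (red) and of miR-125 from mock (blue) on the log2 scale, with SE bars, for the 14 largest called differences in each direction; filled points had an adjusted p under 0.05. All 14 genes lower with let-7 have a filled blue point, as do Gcnt2, Agtrap, Angptl4 and Ppt2 among the higher ones, and none of the 28 has a filled red one. The 28 genes were chosen by the call on these same let-7 and miR-125 arrays.

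Targets come next, since each microRNA is known to lower its own. Of 29 measured known miR-125 targets, 24 were above 0 for let-7 minus miR-125 and 5 below, with a median of 0.37 against 0.00 for all genes. None passed; 10 had an unadjusted p under 0.05 upward and 1 downward, against 968 and 840 of all 9935 genes. With the replicate block 3 passed, all higher with let-7 (background 3.21%). Trp53inp1, a p53-induced regulator of cell death and autophagy, read 12.06, 12.39 and 11.56 with let-7, against 10.76, 11.06 and 10.97 with miR-125 and 11.81, 11.93, 12.02 and 11.80 with mock. Its let-7 and mock arrays overlapped and its miR-125 arrays were all lower (1.08 ± 0.21, adjusted p = 0.0537, and 0.0305 with the replicate block). Sgpl1, which breaks down sphingosine 1-phosphate, had a difference of 1.07 ± 0.29 (adjusted p = 0.108), and Abtb1 of 1.03 ± 0.24 (adjusted p = 0.0739, and 0.0443 with the replicate block). The median of the list against mock was -0.01 with let-7 and -0.44 with miR-125.

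Of 29 measured known let-7 targets, 12 were above 0 and 17 below, with a median of -0.09 against 0.00 for all genes. None had an unadjusted p under 0.05 upward and 6 had one downward, and 3 passed with the replicate block, all lower with let-7 (background 2.62%). Cdc34, a ubiquitin-conjugating enzyme of the cell cycle, was the 1 that passed without the block, lower with let-7 (background 0.684%). It read 10.47, 10.80 and 11.10 with let-7, against 11.77, 11.95 and 11.96 with miR-125 and 11.83, 11.40, 11.51 and 11.69 with mock. The let-7 arrays were the 3 lowest (-1.08 ± 0.19, adjusted p = 0.0445, and -1.43 on a further probe). Against mock Cdc34 gave -0.81 with let-7 (adjusted p = 0.0765) and 0.27 with miR-125 (adjusted p = 0.405). The death receptor gene Fas, also on the list, gave -0.96 ± 0.24 (adjusted p = 0.0875, and 0.0354 with the replicate block), with 0.53 for let-7 minus mock (adjusted p = 0.241) and 1.5 for miR-125 minus mock (adjusted p = 0.0308). The list's median against mock was -0.55 with let-7 and -0.20 with miR-125. Arid3a and Arid3b, AT-rich interaction domain factors on both target lists, did not separate let-7 from miR-125: Arid3a gave 0.81 ± 0.36 (95% interval -0.01 to 1.62, adjusted p = 0.280) and Arid3b 0.37 ± 0.32 (-0.35 to 1.10, adjusted p = 0.591). Their intervals hold differences of a factor of 2, so the data do not show that both microRNAs act alike on them. Arid3a read 5.94, 6.86 and 7.02 with let-7, against 5.75, 5.45 and 6.81 with miR-125 and 7.28, 7.18, 7.82 and 7.58 with mock, and all let-7 and miR-125 arrays lay below all mock arrays.

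Among microRNA pathway genes, 14 were measured and none passed (median -0.04). Tarbp2 and Dicer1, partners in cutting precursor microRNAs, gave -0.67 ± 0.15 (adjusted p = 0.0649, and 0.0320 with the replicate block) and -0.61 ± 0.17 (adjusted p = 0.112), and Prkra, a further Dicer partner, gave 0.52 ± 0.13 (adjusted p = 0.0897, and 0.0390 with the replicate block). Dicer1 is itself a let-7 target and stands on that list too. Dgcr8 gave 0.08 ± 0.28 (adjusted p = 0.914), with 8.05 ± 0.35 in let-7 cells (SD, n = 3), 8.06 ± 0.50 in miR-125 cells (n = 3) and 8.21 ± 0.24 in mock cells (n = 4). All 3 groups carry the deletion, so this level is no check of it, and where the probe lies relative to the deleted part was not tested.

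Among glial and neural lineage markers 1 gene passed, Rbfox3. Of 23 measured astrocyte markers none passed, with a median of 0.02. The largest differences were Cbs (0.86 ± 0.37, adjusted p = 0.268), the secreted protease Htra1 (0.83 ± 0.19, adjusted p = 0.0764, and 0.0295 with the replicate block) and Ttyh1 (-0.77 ± 0.73, adjusted p = 0.633). Vim, the intermediate filament gene of progenitors and astrocytes, averaged 14.61 ± 0.21 with let-7 and 14.56 ± 0.12 with miR-125 (SD, n = 3 each), against 14.57 ± 0.32 with mock (n = 4), and its difference of -0.11 ± 0.14 had a 95% interval of -0.43 to 0.20. Nes, the progenitor filament gene, gave -0.18 ± 0.16 (-0.55 to 0.19, adjusted p = 0.622). Of 17 progenitor markers none passed and 14 were below 0, with a median of -0.20. Of 10 oligodendrocyte lineage markers none passed (median -0.29), and 1 passed in each direction with the replicate block (background 3.21% and 2.62%). Lims2, on this list, read 4.99, 4.89 and 4.88 with let-7, against 7.52, 6.45 and 6.09 with miR-125 and 5.05, 5.10, 5.35 and 4.63 with mock, and was above background on miR-125 arrays only. It missed the threshold at adjusted p = 0.0537 and passed with the replicate block at 0.0305. Of 13 neuron markers Rbfox3 alone passed, lower with let-7 (background 0.684%, median -0.08). Of 20 neuron markers with a probe, 10 were detected on all 10 arrays and 7 on none, among them Tubb3, Stmn2 and Snap25. Ncam1 and Calb2 gave 0.61 ± 0.27 (adjusted p = 0.272) and -0.51 ± 0.20 (adjusted p = 0.218).

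Smooth muscle genes held the 2 largest differences among the members of any list, Actg2 and Acta2, and did not move as one. Of 12 measured, Actg2 passed, lower with let-7 (background 0.684%), and the median was 0.05, with 6 members on each side of 0. Acta2, the alpha actin of smooth muscle, read 7.43, 9.47 and 10.55 with let-7, against 11.96, 12.19 and 12.83 with miR-125 and 9.73, 9.64, 11.43 and 11.53 with mock. The let-7 and miR-125 arrays did not overlap, but the let-7 arrays spread over 3 log2 units, and the difference of -2.57 ± 0.59 missed the threshold (adjusted p = 0.0737, and 0.0247 with the replicate block). Further probes of Acta2 gave -2.27, -2.61 and -2.78. Dcn, the matrix proteoglycan decorin of mesenchymal cells, gave 1.38 ± 0.96 (adjusted p = 0.490), with lower signal on all 4 replicate 1 arrays than on the other 6. The linear signal summed over every probe of the 22 members with a probe was 14175 to 20677 on let-7 arrays. It was 25644 to 32582 on miR-125 arrays and 14154 to 23099 on mock arrays. A member with several probes, such as Acta2, enters that sum more than once, so the sum does not describe the list as a whole. Of the 22 members, 9 were detected on all 10 arrays and 5 on none (Cnn1, Lmod1, Myh11, Col1a1 and Lum). Whether a share of cells in another state moves with these values was not tested.

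Interferon response and antigen presentation genes lay on one side. All 15 measured members were above 0 for let-7 minus miR-125, from 0.07 to 1.20, with a median of 0.49 against 0.00 for all genes, of which 5023 of 9935 lay above 0. Tap2, which carries peptides into the endoplasmic reticulum for display on MHC class I, was the 1 member that passed (background 0.503%), and 3 passed with the replicate block (background 3.21%). It read 8.96, 8.46 and 8.24 with let-7, against 7.49, 7.34 and 7.49 with miR-125 and 7.51, 7.68, 7.68 and 7.35 with mock. The let-7 arrays were the 3 highest (1.03 ± 0.18, adjusted p = 0.0445), with 0.98 for let-7 minus mock (adjusted p = 0.0652) and -0.05 for miR-125 minus mock (adjusted p = 0.897). Psmb9, a subunit of the immunoproteasome, gave 1.20 ± 0.38 (adjusted p = 0.152), and Rsad2, the antiviral enzyme viperin, 1.17 ± 0.60 (adjusted p = 0.346, and 0.0474 with the replicate block). Inflammatory genes went both ways: of 9 measured none passed, with a median of 0.12. The monocyte chemokine gene Ccl2 read 5.12, 4.99 and 6.76 with let-7, against 7.15, 6.92 and 8.16 with miR-125 and 4.95, 4.73, 5.16 and 5.15 with mock. The chemokine gene Ccl7 read 4.66, 5.71 and 6.44 with let-7, against 7.42, 6.95 and 8.18 with miR-125 and 4.69, 4.96, 4.83 and 6.24 with mock. In both the miR-125 arrays were the 3 highest, and both missed the threshold (adjusted p = 0.128 for each) and passed with the replicate block (0.0380 and 0.0245). Cxcl12 gave 0.79 ± 0.31 (adjusted p = 0.231).

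Cell death and growth arrest genes separated one by one rather than as a list. Of 24 measured p53 target and apoptosis genes, 1 was higher (background 0.503%) and 1 lower (background 0.684%), with a median of -0.14. Under the replicate block 2 were higher and 3 lower (background 3.21% and 2.62%). Casp9, the initiator caspase of the mitochondrial pathway, read 11.19, 10.88 and 10.79 with let-7, against 10.16, 9.90 and 10.16 with miR-125 and 10.89, 10.83, 10.64 and 10.63 with mock. The miR-125 arrays were the 3 lowest (0.79 ± 0.13, adjusted p = 0.0423), with -0.61 for miR-125 minus mock (adjusted p = 0.0389). Bok, described above, was the member that was lower with let-7. Of 11 cell cycle inhibitors none passed, and 3 passed upward with the replicate block (background 3.21%; median 0.20). Gadd45a, a stress-induced growth arrest gene, read 10.50, 11.58 and 11.06 with let-7, against 8.62, 10.23 and 9.55 with miR-125 and 9.34, 8.90, 9.34 and 9.30 with mock. Its let-7 arrays were the 3 highest (1.68 ± 0.41, adjusted p = 0.0820, and 0.0354 with the replicate block). Cdkn2b, the inhibitor p15 of cyclin-dependent kinases, gave 0.57 ± 0.24 (adjusted p = 0.243), while both microRNAs raised it over mock, by 2.09 with let-7 (adjusted p = 0.0201) and by 1.51 with miR-125 (adjusted p = 0.0308). Gadd45b gave 0.74 ± 0.45 (adjusted p = 0.422).

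No mitosis, DNA replication or G1 gene on the lists passed. Of 24 mitosis genes none passed and 19 lay above 0, with a median of 0.24. Ube2c, Cdca3 and Incenp gave the largest differences, at 0.72 ± 0.34, 0.55 ± 0.23 and 0.42 ± 0.22 (adjusted p = 0.306, 0.250 and 0.363). The list's median against mock was -0.31 with let-7 and -0.54 with miR-125. Of 23 DNA replication genes none passed and 15 lay above 0 (median 0.06), with medians against mock of -0.43 for let-7 and -0.52 for miR-125. Of 18 G1 cyclin and E2F genes none passed (median 0.04). The repressor E2f6 gave -0.85 ± 0.23 (adjusted p = 0.101), and E2f5, also a let-7 target, -0.46 ± 0.19 (adjusted p = 0.235). Of 18 nucleotide synthesis genes 1 passed, higher with let-7 (background 0.503%): Impdh1, an enzyme of GTP synthesis, read 9.70, 9.89 and 9.83 with let-7, against 9.0, 9.12 and 9.32 with miR-125 and 9.54, 9.83, 9.72 and 9.72 with mock (0.72 ± 0.12, adjusted p = 0.0423, and 0.82 on a further probe). The median of that list was -0.07. Of 16 DNA methylation and Polycomb genes none passed (median 0.02), and the Polycomb subunit gene Cbx7 gave 1.86 ± 0.40 (adjusted p = 0.0649).

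The lysosome and respiratory chain lists held 1 call each. Of 20 lysosome genes 1 passed, higher with let-7 (background 0.503%): Neu1, the lysosomal sialidase, read 11.61, 11.02 and 10.72 with let-7, against 9.75, 9.72 and 10.06 with miR-125 and 10.66, 10.78, 10.49 and 10.57 with mock. Its miR-125 arrays were the 3 lowest (1.15 ± 0.19, adjusted p = 0.0423), and the median of the list was 0.04, with 3 higher and 1 lower under the replicate block (background 3.21% and 2.62%). Of 26 subunits of the respiratory chain and ATP synthase, 19 lay below 0, with a median of -0.12, and Sdhd, a membrane anchor of succinate dehydrogenase, passed, lower with let-7 (background 0.684%). Under the replicate block 2 subunits on the list passed, both lower (background 2.62%). Sdhd read 6.49, 8.67 and 8.73 with let-7, against 9.49, 9.18 and 9.64 with miR-125 and 6.64, 8.74, 8.68 and 8.71 with mock. The 6.49 and the 6.64 are the arrays of hybridization 2, about 2 log2 units below the rest, and the difference was -0.76 ± 0.14 (adjusted p = 0.0454). It was -0.73 within hybridization 3 alone (adjusted p = 0.130) and -1.47 without the hybridization term (adjusted p = 0.372), so its size was alike within the batch and the call was lost in both. Ndufb5, also a respiratory chain subunit, and Sdhb gave -0.53 ± 0.16 (adjusted p = 0.146) and -0.52 ± 0.13 (adjusted p = 0.0954). The list does not hold every respiratory chain gene. Off the list and not picked by the rule for naming genes, the subunit gene Ndufb7 was called lower (-1.01 ± 0.14, adjusted p = 0.0331). So were the assembly factor genes Sdhaf3 (-0.96 ± 0.16, adjusted p = 0.0423) and Ndufaf7 (-0.91 ± 0.16, adjusted p = 0.0429). Of 22 glutathione and antioxidant genes none passed and 16 lay above 0 (median 0.15); Mgst1, a membrane glutathione transferase gene, gave 0.89 ± 0.18 (adjusted p = 0.0537, and 0.0287 with the replicate block). No member passed among 24 cholesterol and fatty acid synthesis genes (median -0.15), 20 glycolysis and hypoxia genes (0.09), 19 cytosolic ribosomal protein genes (0.02) or 22 amino acid and unfolded protein response genes (0.14). Under the replicate block 2 of the amino acid and unfolded protein response genes passed, both higher with let-7 (background 3.21%).

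Signalling and matrix lists held no call. None passed among 24 TGF-beta and BMP pathway genes (median 0.01), with Tgfb3 at 0.95 ± 0.27 (adjusted p = 0.118) and the receptor gene Tgfbr2 at 0.81 ± 0.26 (adjusted p = 0.157, and 0.0318 with the replicate block). None passed among 17 Notch pathway genes (median -0.17), where Notch2 gave -1.02 ± 0.22 (adjusted p = 0.0661). None passed among 15 JAK-STAT and LIF pathway genes (0.08), 19 growth factor response and immediate early genes (-0.03), 30 matrix and adhesion genes (-0.01), 18 axon guidance genes (0.05), 11 genes of the insulin-like growth factor system (0.21), 12 imprinted genes (-0.01) or 10 annexin and S100 genes (0.29). Under the replicate block the JAK-STAT and growth factor response lists each had 1 lower gene (background 2.62%). The axon guidance and imprinted lists each had 1 higher gene (background 3.21%), and the matrix list had 1 in each direction. In axon guidance this was Epha3 (0.76 ± 0.21, adjusted p = 0.118, and 0.0322 with the block), with further probes at 0.3 and -0.11. Ier3, an early response gene, gave 1.31 ± 0.53 (adjusted p = 0.238), and Thbs2, the matrix protein thrombospondin 2, gave 1.33 ± 0.51 (adjusted p = 0.217, and 0.0277 with the replicate block). Of 6 pluripotency markers none passed (median 0.39), and Klf4 gave 1.29 ± 0.35 (adjusted p = 0.108, and 0.0240 with the replicate block), with further probes at 0.13 and 0.66.

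**Figure D5:**
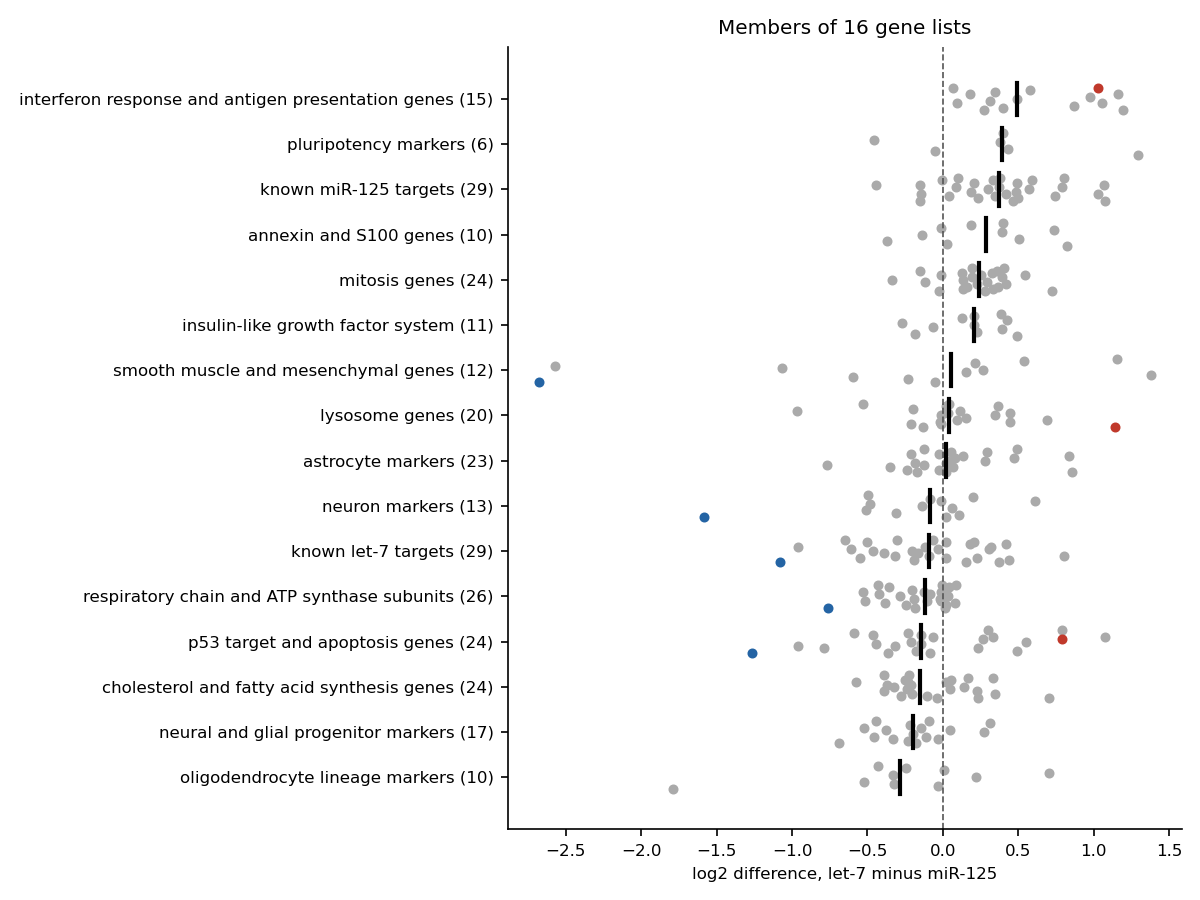
Difference between let-7 and miR-125 (log2, horizontal axis) for every measured member of 16 gene lists, with the number measured in brackets; red and blue points passed the test, grey points did not, black bars are list medians and the dashed line is the median of all genes. All 15 interferon genes lie right of 0, 24 of 29 miR-125 targets do, and Actg2 and Acta2 lie far to the left.

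The 3 knockout and 3 flox/delta arrays of undifferentiated cells in hybridization 1, which share no array with the direct comparison, give the same genes with and without Dgcr8. The knockout arrays are labelled with tamoxifen and mock and the flox/delta arrays with no treatment, so genotype and treatment cannot be told apart there. In that comparison 5005 of 9129 genes (54.8%) passed, so a call there is common. Of the 50 genes higher with let-7, 46 were measured, 15 higher and 17 lower in knockout than in flox/delta cells (32.6% and 37%). Of the 68 lower genes, 63 were measured, 16 higher and 27 lower (25.4% and 42.9%), and among genes without a call the shares were 28.8% and 26.2% of 8806. Dusp23, Slc46a3, Lgals8 and Angptl4 were lower in knockout cells there, by -1.80, -2.04, -1.22 and -1.01 (adjusted p = 7.09e-06, 9.97e-05, 0.000192 and 0.00487). Vmac was lower by -0.69 (adjusted p = 0.00165). Ociad2 and Agtrap were higher by 0.88 and 1.29 (adjusted p = 0.000882 and 1.37e-05). Rhebl1, Adgre5 and P2rx4 were higher by 1.0, 0.97 and 0.35 (adjusted p = 9.90e-05, 4.25e-05 and 0.0320). Of genes lower with let-7, Cdc34, 3110082I17Rik and B3gnt5 were higher by 1.38, 1.14 and 0.60 (adjusted p = 8.61e-06, 0.000397 and 0.00427). Rasl11a, Necab2 and Rbfox3 were lower by -1.32, -1.58 and -0.48 (adjusted p = 0.00136, 1.27e-06 and 0.0493). Actg2 was not kept in either comparison of hybridization 1. For differentiation EGF and FGF were withdrawn and 1% FBS, a serum, and B27 supplied. Between differentiated and undifferentiated flox/delta cells 5193 of 9404 genes (55.2%) passed. There 47 of the 50 genes higher with let-7 were measured, 18 higher and 13 lower in differentiated cells (38.3% and 27.7%). The 68 lower genes had 66 measured, 23 higher and 20 lower (34.8% and 30.3%). Among genes without a call the shares were 26.8% and 28.2% of 8858. Lgals8 and Angptl4 were higher by 1.5 and 1.99, and Rasl11a and Rbfox3 by 1.99 and 1.88 (adjusted p between 7.07e-06 and 7.50e-05). Bok, Adamts4 and Ppt2 were lower, by -1.41, -0.77 and -0.65 (adjusted p = 6.10e-06, 0.000104 and 0.00286). Vmac, the uncertain Pygl, Gcnt2, Aig1 and Fgf17 were also higher, by 1.63, 1.60, 1.59, 1.31 and 1.18 (adjusted p between 3.74e-06 and 1.32e-05). Smaller rises were seen for P2rx4, Ociad2, Gmip and Crybb3, by 0.94, 0.68, 0.54 and 0.30 (adjusted p between 0.000151 and 0.0321). Necab2 and Nme6 were lower, by -0.53 and -0.31 (adjusted p = 0.00325 and 0.0330).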

How the data were processed

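Glial progenitor cells were profiled on Illumina mouse bead arrays. The authors deposited, per the file headers, a non-normalized table of probe intensity with a detection p-value for each probe and array, and a value table of normalized log2 signal; the submitters' processing notes name limma, and its settings are not given in the sources used here. From the deposited intensities, neqc of limma 3.58.1 (R 4.3.3) corrected background with the detection p-values, added an offset of 16, quantile normalized the 10 arrays and took log2. Probes with a detection p under 0.05 on at least 3 arrays were kept (13617 of 25697), and a gene was its kept probe of highest mean. Of all probes, 23978 carried 1 symbol, 1719 none and 0 several, and the Entrez IDs of 23962 matched the RefSeq table of GRCm38.p6. lmFit and eBayes fitted groups and hybridization (6 residual degrees of freedom), two-sided, with Benjamini-Hochberg adjustment over 9935 genes and a threshold of 0.05; every adjusted p is from limma, and intervals are 95%. The fit was tested on simulated data. The number of arrays limits the precision, and mock replicate 1 was hybridized in both batches, possibly as the same RNA, and entered as separate arrays.

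Replicate numbers mark tamoxifen treatments per the labels, and same-numbered let-7 and miR-125 arrays deviated together (correlations of 0.227, 0.285 and 0.427). Arrays of unlike number gave -0.366 to 0.104. Deviations from a group mean sum to 0, so these correlations are tied to each other and do not measure the strength of the pairing. Blocked values are given for many of the calls that the block changes, not for all. Named genes were the 14 called genes with a symbol that differed most in each direction without overlap in hybridization 3, the marker genes Dusp23, Ociad2 and Actg2, the genes Dgcr8, Gfap, Vim, Nes, Arid3a and Arid3b, and up to 5 called members of each of 37 lists, filled to 3 with the largest other differences. The members and lists were chosen with earlier results of these data known. Alternatives changed the background correction, normalization, offset, filter, probe rule, hybridization term and arrays.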

Additional observations from a re-analysis of the deposited data

Results flagged for a closer look

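In 4 of the 39 genes checked, 1 of the 4 mock arrays lay far from the other 3 by Dixon's ratio. A rate of about 1 in 20 by chance would hold for arrays of the same batch. Here 1 mock array is of hybridization 2 and the batch difference was left in, so that rate does not apply. Dusp23 read 6.47 on mock replicate 1 of hybridization 2, against 7.16 to 7.28 on the others. Slc46a3 read 6.73 on mock replicate 3, against 7.34 to 7.43. Rhebl1 read 8.42 on mock replicate 1 of hybridization 3, against 8.75 to 8.81. Sdhd read 6.64 on mock replicate 1 of hybridization 2, against 8.68 to 8.74, and let-7 replicate 1 of the same hybridization read 6.49.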

How the results depend on the processing

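The number of calls depended on the setting far more than their direction did. Against 50 genes higher and 68 lower with let-7, the counts were 319 and 260 with the replicate block, 0 and 0 in hybridization 3 only, 5 and 6 with no hybridization term, 65 and 73 with hybridization as a random block, 46 and 35 with normexp and median scaling, 196 and 182 with no background correction, 89 and 100 with an offset of 50, 4 and 13 with no filter on dim probes (18312 genes tested), 96 and 110 for probes detected on every let-7 or every miR-125 array, and 33 and 49 over every kept probe. Leaving out 1 array at a time gave 0 to 40 higher and 0 to 36 lower, among them 7 and 15 without mock replicate 1 of hybridization 3. Leaving out the mock array of hybridization 2 leaves let-7 replicate 1 alone there, fitted by its own term. Of the 118 calls, 116 or more kept their sign among those tested in every alternative. The alternatives reuse the arrays that made the call, so a kept sign adds no support. Pygl reversed without miR-125 replicate 2 (0.24) and replicate 3 (0.12), where its other probe was tested, and its lowest value on leaving out an array was -1.72. Of the 34 called genes named by rule, 34 stayed past the threshold with the replicate block, 32 with the random block and 31 with normexp. With no hybridization term 9 stayed, and 0 in hybridization 3 only. All 34 had the same sign in the authors' deposited normalized log2 values, which come from the same arrays. In size, 10 of the 34 lay within the pooled SD of the let-7 and miR-125 groups from the value given here. The other 24 lay further off. The replicate block ended none of these 34 calls. The causes of these changes were not tested.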

Other observations

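For some genes the replicate 1 arrays, those of tamoxifen treatment 1, stood apart in all 3 groups. For 429 of 9935 genes all 4 replicate 1 arrays lay above the other 6, and for 266 all lay below. The let-7 array of replicate 1 was also the only let-7 array of its hybridization, and the batch difference was left in. For let-7, treatment and hybridization therefore cannot be told apart here. The miR-125 arrays shared a hybridization, so their split does not lie between hybridizations. The genes named here were chosen after their values were seen. Hes5, a Notch effector of neural progenitors, read 9.01 on let-7 replicate 1 against 6.50 and 5.30 on the other let-7 arrays, 9.92 on miR-125 replicate 1 against 5.04 and 5.11, and 9.81 and 9.73 on mock replicate 1 against 6.62 and 5.53. Ntrk2, the receptor of brain-derived neurotrophic factor, read 9.49 on let-7 replicate 1 against 6.68 and 7.38, and 10.81 on miR-125 replicate 1 against 7.80 and 7.91. Dcn ran the other way, with 6.63 on let-7 replicate 1 against 9.88 and 9.04, and 5.84 on miR-125 replicate 1 against 9.16 and 8.54.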
